A study of Homo sapiens with 20 samples.

Results

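The lincRNA catalogue measured during neuronal differentiation of human neural progenitors holds 2698 records that the authors flagged as pseudogenes. LincRNAs are long intergenic noncoding RNAs, named in this catalogue after a neighbouring coding gene. The 2658 flagged records described here are those whose name does not carry the symbol of a developmental transcription factor family (SOX, POU, HOX and similar), a rule that left out 40. They are 2658 of 18132 lincRNA records and of 38369 records in all. The other lincRNA records comprise 15434 without the flag, and 20237 records are coding genes.

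A pseudogene is a gene copy that has lost the reading frame or the regulation of its parent. Processed pseudogenes (retrocopies) arise when a spliced messenger RNA is copied into DNA and inserted elsewhere in the genome, so they lack introns and usually resemble the coding sequence of genes with abundant messenger RNA, such as those of ribosomal proteins. Unprocessed pseudogenes arise by duplication of genomic DNA and keep an exon and intron structure. Because a young copy differs from its parent at few bases, a short read from the parent can match the copy as well.

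The cells were H1-derived neural progenitors, H1 being a human embryonic stem cell line in wide use. Day 0 cells were kept in medium with FGF, which sustains their division, and the groups at days 1, 2, 4, 5, 11 and 18 followed withdrawal of FGF and addition of BDNF, a neurotrophic factor. Each day had 3 cultures except day 5 with 2, from which an outlier had been dropped before deposit, giving 20 samples of 1 cell line. Cells for days 5, 11 and 18 were moved at day 4 onto poly-D-lysine and laminin, so day 5 differs from day 4 by the replating as well. The values are FPKM, fragment numbers corrected for transcript length and for the size of the library, with 1 value per record and day over all cultures of that day. No spread between cultures, no test and no depth can therefore be given for any value, and every comparison here is a description of 7 values.

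The labelled cell type was compared with its defining markers. NES was at 513 FPKM on day 0 and 180 on day 18, and SOX2 at 126 and 66.1. VIM was at 2948 and 1493 FPKM on these days, and MSI1 at 47.8 and 35.2. The progenitor markers PAX6 and HES5 went the other way, from 4.31 and 1.95 FPKM on day 0 to 10.4 and 20.0 on day 18. DCX, a marker of young neurons, was at 5.46 FPKM on day 0 and 88.0 on day 18, and STMN2 at 32.3 and 727. GFAP, AQP4, OLIG1, SOX10, POU5F1 and NANOG were under 0.35 FPKM on every day, and the glial markers CSPG4 and S100B were at 0.562 and 8.68 FPKM on day 0 and 0.138 and 4.25 on day 18. COL3A1, a collagen of mesenchymal cells, was at 238 FPKM on day 0 and 30.5 on day 18. COL1A1 was listed at 0 on all 7 days. In such bulk samples, fewer cells of a type and less RNA per cell cannot be told apart.

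The sequences show how close the flagged records can be to coding genes, and they were read from the GRCh37 (hg19) genome for the records and from the longest coding sequence of each gene in GENCODE release 44, lifted to GRCh37. For 5 of the records described below, the 90 gap-free bases of the best alignment with the most differing bases are given in the sense of the coding gene, with differing bases in capitals. The stretch of linc-STEAP1B-1 is at chr7:22550556-22550645 on the minus strand, within the processed pseudogene EEF1A1P6, and faces bases 975 to 1064 of the EEF1A1 coding sequence. The stretch of linc-ZCCHC6 is at chr9:88990224-88990313 on the minus strand and faces bases 318 to 407 of RPS6. The stretch of linc-UBE2E2-1 is at chr3:22423850-22423939 on the plus strand, within HMGB1P5, and faces bases 541 to 630 of HMGB1. The stretch of linc-COL9A1 is at chr6:71318589-71318678 on the minus strand and faces bases 360 to 449 of SMS. The stretch of linc-CTNNB1-2 is at chr3:40803129-40803218 on the plus strand, within RPS27P4, and is identical to bases 94 to 183 of RPS27, so it is printed alone.
linc-STEAP1B-1: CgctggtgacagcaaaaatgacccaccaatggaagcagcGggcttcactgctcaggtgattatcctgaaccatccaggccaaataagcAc
EEF1A1: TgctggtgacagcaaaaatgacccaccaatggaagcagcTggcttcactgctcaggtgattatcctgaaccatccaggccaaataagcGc
linc-ZCCHC6: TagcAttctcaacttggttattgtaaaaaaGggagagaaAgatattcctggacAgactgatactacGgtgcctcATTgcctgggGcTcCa
RPS6: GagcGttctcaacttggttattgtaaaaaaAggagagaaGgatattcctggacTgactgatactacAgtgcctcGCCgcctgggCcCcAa
linc-UBE2E2-1: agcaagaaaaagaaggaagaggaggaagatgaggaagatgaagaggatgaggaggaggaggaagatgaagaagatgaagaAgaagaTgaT
HMGB1: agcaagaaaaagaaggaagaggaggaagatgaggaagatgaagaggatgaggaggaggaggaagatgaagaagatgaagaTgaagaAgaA
linc-COL9A1: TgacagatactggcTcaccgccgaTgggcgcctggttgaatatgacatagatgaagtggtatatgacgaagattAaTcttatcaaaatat
SMS: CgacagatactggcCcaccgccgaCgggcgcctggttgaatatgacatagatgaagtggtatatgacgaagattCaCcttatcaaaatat
linc-CTNNB1-2: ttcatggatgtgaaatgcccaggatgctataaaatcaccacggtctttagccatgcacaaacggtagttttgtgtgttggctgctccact

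Even at their most divergent, these stretches differed from EEF1A1 at 3 of 90 bases, from RPS6 at 12, from HMGB1 at 3, from SMS at 5 and from RPS27 at 0.  Reads that match both a record and its parent were not separated here, and their part in the levels below was not tested.

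Pseudogene-flagged records were, as a class, more highly expressed than other lincRNA records and lower than coding genes. The median of the mean FPKM over days was 0.148 for the 2658 flagged records, 0.0371 for unflagged lincRNA records and 3.02 for coding records. A mean of at least 1 FPKM was reached by 786 flagged records (29.6%), by 1850 unflagged records (12.0%) and by 11793 coding records (58.3%). At 10 FPKM and above there were 229 flagged records (8.62%) against 279 unflagged ones (1.81%). At 100 FPKM and above there were 43 in each class, which is 1.62% of flagged and 0.279% of unflagged records. At the low end, 237 flagged records were listed at 0 on all 7 days.

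**Figure D1:**
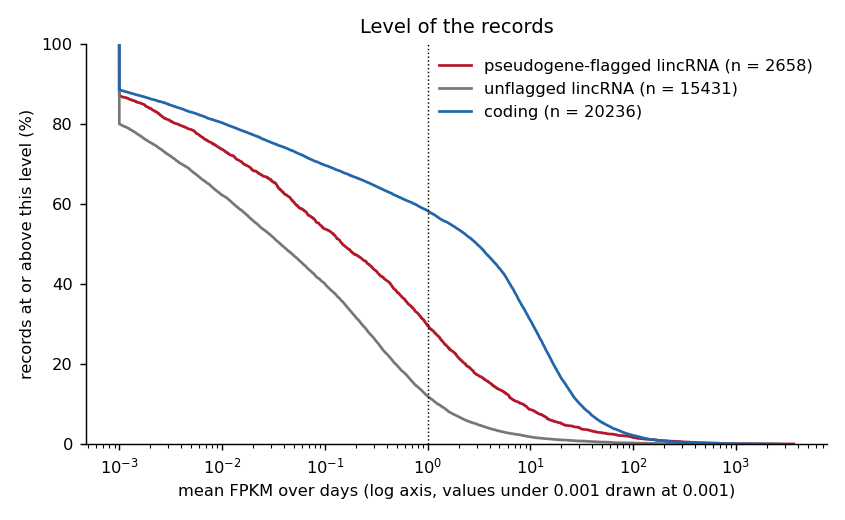
Share of records (vertical axis, percent) at or above a given mean FPKM over days (horizontal axis, log scale) for pseudogene-flagged lincRNA, unflagged lincRNA and coding records. The dotted line marks 1 FPKM, where the curves stand at 29.6%, 12.0% and 58.3%.

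Although they were a minority of the lincRNA records, the flagged records contributed 39.1% (day 18) to 41.7% (day 5) of the summed FPKM of all lincRNA records with a value on every day, a sum that leaves out linc-STEAP1B-1. Of all records, coding genes included, they contributed 5.07% (day 0) to 6.10% (day 4). The 20 highest flagged records with all 7 values held between 41.2% and 46.9% of the flagged sum. The number of flagged records at or above 1 FPKM was 749 on day 0, 808 on day 4 and 732 on day 18. Values of 0 that carry the status HIDATA, which Cuffdiff gives to loci with too many fragments, and those with the status FAIL were treated as missing, and this touched 7 flagged records.

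What the flagged records overlap was taken from GENCODE, by the gene sharing most exon bases. Annotated long noncoding RNAs were the most frequent partner, with 1165 records (43.8%), followed by processed pseudogenes with 718 (27.0%), protein-coding genes with 344 (12.9%), unprocessed pseudogenes with 229 (8.62%) and other pseudogenes with 96 (3.61%). No annotated gene was found at 98 records (3.69%), which include 34 on alternative chromosome 6 sequences that were not compared, and 8 had another kind of gene. Of the records on protein-coding genes, 266 lay on the opposite strand. The flag and the annotation therefore overlapped only in part: 722 records without the flag also had a processed pseudogene as main partner, 538 of them on the opposite strand, whereas 679 of the 718 flagged ones lay on the same strand.

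The processed pseudogenes carried most of the signal. Their median level was 0.896 FPKM and 48.6% were at or above 1 FPKM, against 0.0618 FPKM and 21.5% for records on long noncoding RNAs. They held between 80.8% and 84.9% of the summed FPKM of flagged records. Unflagged records on processed pseudogenes were similar in level, with a median of 0.724 FPKM. They made up 35 of the 43 unflagged records at or above 100 FPKM. Of the 43 flagged records at or above 100 FPKM, 40 were processed pseudogenes and 3 were annotated as long noncoding RNAs. Of these 3, 2 are described here and were chosen after their values were seen. Linc-TMEM196-2 (chr7:19950562-20171342, minus strand), with a mean of 165 FPKM, contains the ribosomal protein pseudogene RPL21P75 in an exon. Linc-HSCB-11 is MIAT, a nuclear long noncoding RNA known from brain and heart, with 61.1 FPKM on day 0, 211 on day 11 and 153 on day 18.

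**Figure D2:**
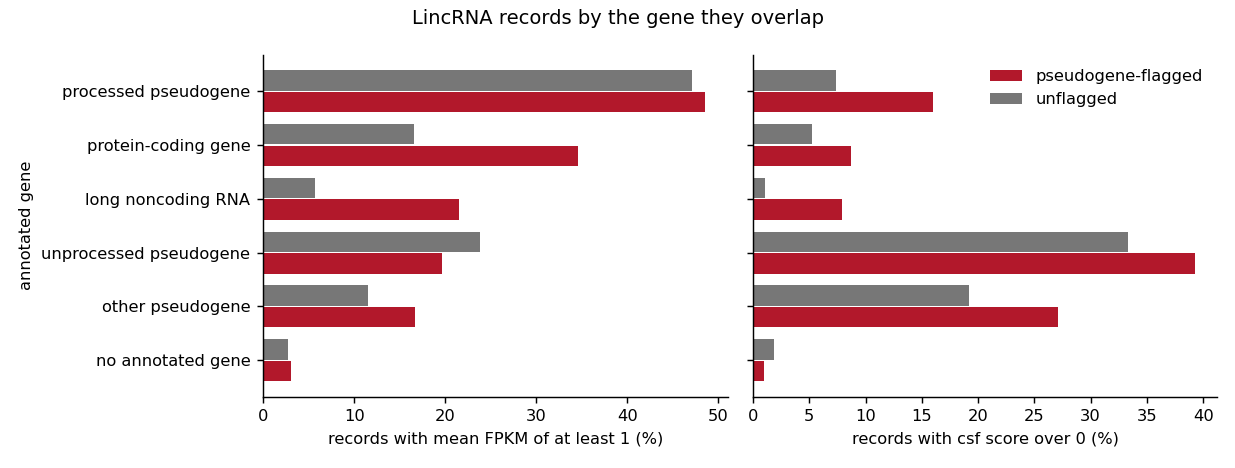
Percent of records with a mean of at least 1 FPKM (left) and with a csf score above 0 (right), by the GENCODE gene that a lincRNA record overlaps, for pseudogene-flagged and unflagged records. Processed pseudogenes reach 48.6% and 47.1% in the left panel, and unprocessed pseudogenes 39.3% and 33.3% in the right panel.

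The csf column, taken here as a codon substitution score, is higher when a transcript changes between species as a coding sequence does, and its scale is not given in the sources used here. With the highest-scoring transcript of each record, the median was -912 for flagged records (quartiles -2224 and -147.5) and -2767 for unflagged ones. A score above 0 was listed for 354 flagged records (13.3%) and for 568 unflagged ones (3.68%). Flagged records at or above 1 FPKM had a median of -635 and 17.6% above 0. Records on unprocessed pseudogenes had the highest scores, with a median of -66 and 39.3% above 0, compared with medians of -410 for processed pseudogenes and -1279 for long noncoding RNAs. A hit to a protein domain in PFAM was listed for 7.37% of flagged and 5.13% of unflagged records.

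In structure, flagged records had a median of 3 exons and 2620.5 exon bases, against 2 exons and 1940 bases for unflagged ones. Only 64 (2.41%) had 1 exon. The authors' antisense label was set for 478 flagged records and the bidirectional promoter label for 168. An exon of 499 records (18.8%) overlapped an exon of a coding record on either strand, compared with 43.4% of unflagged lincRNA records.

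The 5 highest csf scores among flagged records at or above 1 FPKM all belonged to records that match a coding gene elsewhere. Linc-DGCR6L-3 (chr22:20383511-20427875, minus strand, 18 exons, score 3144) is PI4KAP1, a copy of the phosphatidylinositol kinase gene PI4KA, and stayed between 12.2 and 15.8 FPKM. The record of PI4KA, which also carries the symbol of the pseudogene PI4KAP2, was between 17.5 and 23.6. Linc-C16orf58-2 (chr16:32162610-32199434, minus strand, 26 exons, score 3080) is HERC2P4, a copy of the ubiquitin ligase gene HERC2, with 1.92 to 2.96 FPKM. Linc-ZNF479-14 (chr7:63026653-63044540, minus strand, score 2436) is TNRC18P2, with 2.98 to 6.14 FPKM. Of these 3, linc-ZNF479-14 had the widest range over the days, with its lowest value on day 0 and its highest on day 2.

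The other two high-scoring records were lower late in the course. Linc-CCDC146-1 (chr7:76589101-76682355, plus strand, 29 exons, score 1867) spans DTX2P1 and neighbouring pseudogenes and went from 22.9 FPKM on day 0 to 9.78 on day 18. Linc-ANKRD20A1-14 (chr9:65585703-65635875, plus strand, score 1838) matches CNTNAP3, a gene of the neurexin superfamily, with an identical run of 219 bases. It had 5.11 FPKM on day 0, 1.55 on day 1 and 0.977 on day 18, and CNTNAP3 had 6.69, 2.25 and 0.916 on the same days. Record and gene thus stood within 2-fold of each other on each of these days.

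Coding sequence was searched in the exons of every record, with alignments of at least 100 bases and 80% identity to a coding gene elsewhere in the genome. A match was found for 1510 flagged records (56.8%) and for 2736 unflagged ones (17.7%), and among records at or above 1 FPKM for 79.0% and 42.6%. The flagged matches pointed to 882 different genes, called parents here, of which 268 had at least 2 records and 53 at least 5. A parent is the gene of the best alignment, which can be short. Linc-BUB1-2, with 39513 exon bases, was assigned SEC24B from 108 bases at 80.6% identity. A parent thus need not be the gene from which the record was copied, and such matches enter the counts and classes below. RPL23A had most, with 13 records, followed by EEF1A1 and RPS2 with 12 each. Records of 1 parent differed widely in level: the 12 records matching EEF1A1 ranged from 0 to 3642 FPKM with a median of 0.428, and the 13 matching RPL23A from 0.0145 to 468 with a median of 1.58. Records that share a parent are not independent of each other.

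Level went with identity to the parent. Among flagged records whose best alignment had 80% to 90% identity, 24.8% of 375 were at or above 1 FPKM. This share was 37.2% of 489 at 90% to 95%, 53.3% of 409 at 95% to 98% and 54.0% of 237 at 98% and above, and 14.4% of the 1148 records without a match. The median level relative to the parent's record followed the same order, at 0.407%, 1.42%, 6.56% and 31.6% of the parent. These medians cover the 209, 380, 317 and 141 records whose parent was at or above 1 FPKM. Scores of csf above 0, over all records of each class, followed the same order too, at 8.00%, 16.2%, 27.9% and 33.3%. Unflagged lincRNA records with a match showed the same order, with 19.2%, 30.3%, 45.2% and 47.3% at or above 1 FPKM. In the class of at least 98% identity, 23 records were at or above 100 FPKM. Of the 141 with such a parent, 29 stood above it.

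**Figure D3:**
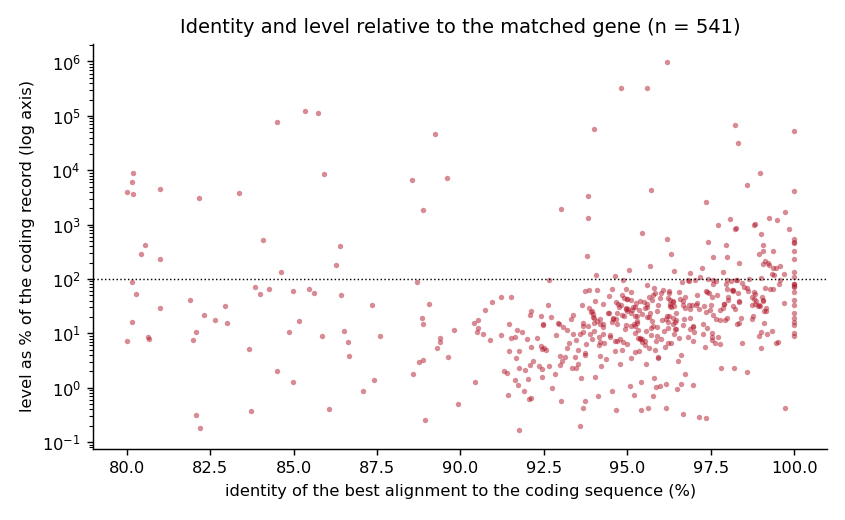
Mean FPKM of each flagged record as percent of its parent's record (vertical axis, log scale) against the identity of the best alignment (horizontal axis, percent), for the 541 flagged records at or above 1 FPKM whose parent has a nonzero record. The dotted line marks equal levels, and 89 points lie above it.

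Most expressed flagged records with a measured parent kept their ratio to it within 2-fold. For 501 records at or above 1 FPKM with a measured parent, the range of the log2 ratio over the days had a median of 0.48, and 389 (77.6%) stayed within 2-fold. Many records changed little by themselves. The range of the level alone was under 2-fold for 53.7% of 784 flagged records and 53.0% of all records at or above 1 FPKM. Apart from the neighbours below, ratios to unrelated genes were not measured. At 98% identity or more the median range was 0.35 and 84 of 97 (86.6%) stayed within 2-fold, whereas below 90% identity it was 1.03 and 28 of 59 (47.5%) did. For 365 records with both a parent and a measured neighbour of the name, the range was 0.48 against the parent and 1.07 against the neighbour, and 276 (75.6%) and 168 (46.0%) stayed within 2-fold. By this measure, the ratio to the matched gene varied less over the days than the ratio to the neighbour. The parent was chosen by shared sequence and the neighbour was not. Reads that match both record and parent can enter the level of the record, and their part in this difference was not tested.

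Translation elongation gave the highest record of all. Linc-STEAP1B-1 (chr7:22550003-22551652, minus strand) is EEF1A1P6, a copy of the gene of elongation factor 1 alpha, which brings aminoacyl-tRNA to the ribosome, with 99.4% identity. Its FPKM was 2335 on day 0, 3578 on day 1, 4913 on day 2, 4067 on day 5 and 3318 on day 11, and days 4 and 18 are missing with the status HIDATA. The record of EEF1A1, which also carries the symbol of its paralog EEF1A2, was at 1108, 2360, 2959, 2636 and 2127 FPKM on those days, so both were lowest on day 0 and highest on day 2 among them. Linc-GTF3C5 (chr9:135894775-135897253, plus strand, EEF1A1P5) has a value on day 0 only, 797 FPKM. Linc-PTBP2-1, which holds EEF1A1P11, was at 127 FPKM on day 0, 248 on day 4 and 139 on day 18. Its record ends at the same base as linc-ALG14-7 on the other strand. Of 34 flagged records grouped under translation factors, a group that also took in the TPT1 copy linc-SF3B5-1, 14 were at or above 1 FPKM.

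Copies of cytosolic ribosomal protein genes made up the largest group of known function. They comprised 252 records of 71 parents, of which 110 were at or above 1 FPKM and 27 at or above 100 FPKM, and they held 56.5% of the summed mean level of flagged records with all 7 values. Linc-ALG14-7 (chr1:97144336-97145202, minus strand, RPL7P9) led them with 915, 952, 899, 1271, 1029, 1049 and 718 FPKM over the 7 days in order. Its highest value was on day 4 and its lowest on day 18. RPL7 was at only 38.8, 44.2, 125, 55.8, 46.0, 47.5 and 46.2 FPKM, so the copy stood at 1694% of its parent. RPL7 was highest on day 2, when the copy was lower than on day 1, and the log2 ratio moved by 1.71.

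Of the records named by rule, the RPS6 copy had the smallest range of its ratio to the parent. Linc-ZCCHC6 (chr9:88989860-88990561, minus strand, 1 exon) matched RPS6 at 91.5% with no identical run longer than 43 bases. It had 620, 669, 851, 957, 761, 703 and 434 FPKM over the 7 days. RPS6 had 1322, 1446, 1807, 2058, 1631, 1556 and 950 FPKM. The log2 ratio moved by 0.06 over the course, and the record stood at 46.4% of RPS6. Its neighbour ZCCHC6 was at 5.30 FPKM on day 0 and 4.80 on day 18.

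The RPS27 copy stood far above its parent. Linc-CTNNB1-2 (chr3:40802997-40803358, plus strand, RPS27P4) had 599, 663, 735, 889, 779, 705 and 578 FPKM. RPS27 had 11.5, 15.4, 16.9, 18.2, 16.7, 17.7 and 25.1 FPKM, so the copy was at 4073% of it and, unlike RPS27, was not highest on day 18. RPS27 encodes a protein of the small ribosomal subunit. Low levels of a parent beside a high copy were also seen for RPL12, at 23.8 to 38.1 FPKM, against 198 to 367 for linc-MC3R-2 (RPL12P4), and for RPS7, at 47.2 to 91.9 FPKM, against 292 to 619 for linc-SLC13A2 (RPS7P1).

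The remaining ribosomal copies among the 20 highest records shared a shape. Linc-L3MBTL4-1 (chr18:6461926-6463033, RPL6P27) had 649 FPKM on day 0, 839 on day 4 and 491 on day 18, and RPL6 had 198, 258 and 162. Linc-ANKRD55-4 (RPL26P19), linc-PHACTR1-1 (RPL15P3), linc-ZNF490 (RPL10P16), linc-SNRPC (an RPS10 copy), linc-ODZ2-1 (RPLP0P9), linc-FITM2-2 (RPL37AP1) and linc-SPTSSB-1 (RPL23AP42) were likewise highest on day 4, at 899, 516, 483, 347, 308, 296 and 594 FPKM. All of these were lowest on day 18, at 414, 289, 253, 218, 172, 201 and 283 FPKM. Linc-EVX2-2 (an RPLP1 copy) and linc-MED14-3 (RPS2P55) were highest on day 2, at 378 and 426 FPKM, and lowest on day 18, at 220 and 202. Over the 166 ribosomal copies with a change from day 0 to day 18, the median was -0.17 on the log2 scale, with 12 past 2-fold higher and 15 lower, where 10.5% of all records were higher and 24.2% lower. Recentred on the median of all expressed records, the direction turned, with a median of 0.39, 26 higher and 3 lower, against 19.9% and 10.6% of all records.

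**Figure D4:**
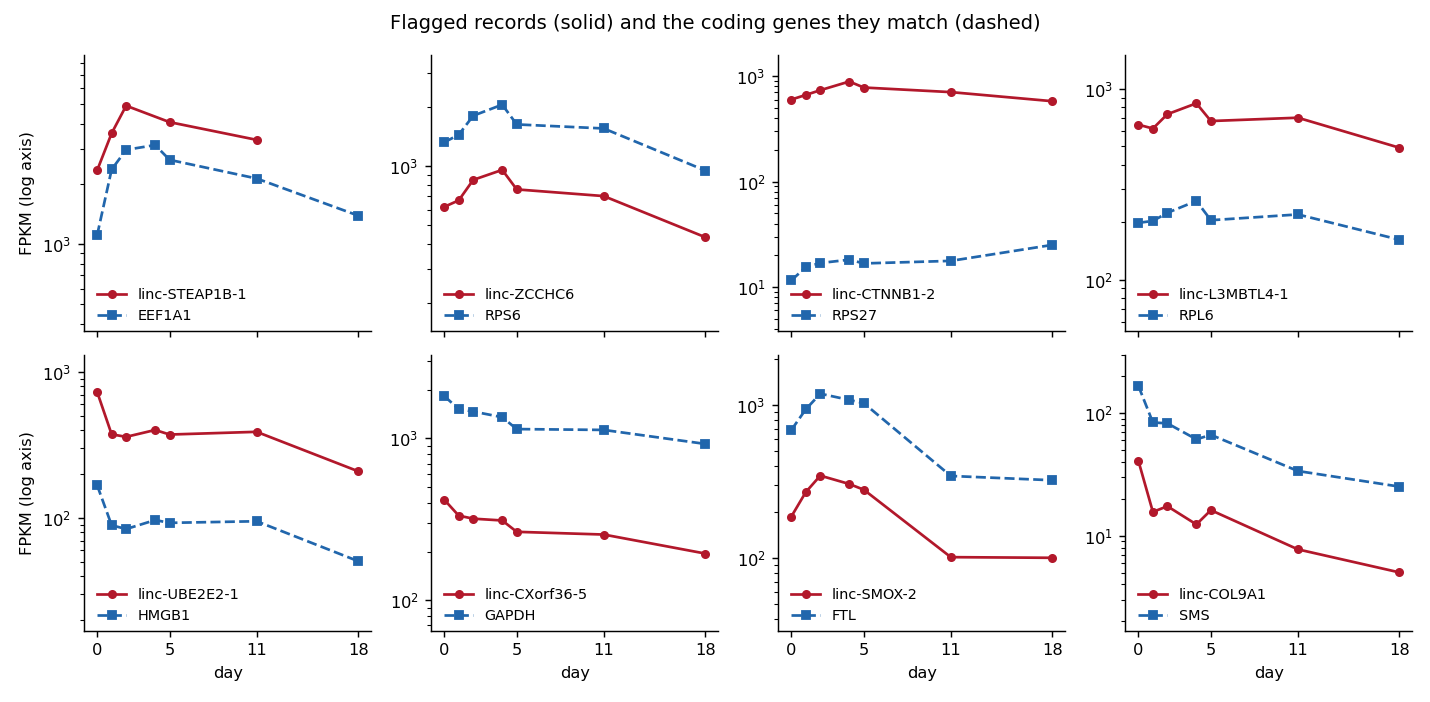
FPKM (vertical axis, log scale) by day (horizontal axis) for 8 flagged records (solid red) and the coding gene each matches (dashed blue), 1 value per day and no error. The lines run in parallel for RPS6, RPL6, HMGB1, GAPDH, FTL and SMS, whereas linc-CTNNB1-2 stands above RPS27 at 578 to 889 against 11.5 to 25.1 FPKM.

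Copies of genes of chromatin proteins and their chaperones comprised 31 records of 12 parents, of which 14 were at or above 1 FPKM. Linc-UBE2E2-1 (chr3:22423210-22597727, plus strand, HMGB1P5) is a copy of HMGB1, a DNA-bending protein of chromatin. It had 730, 374, 359, 400, 373, 389 and 209 FPKM over the 7 days, so it was lower from day 1 and lower again on day 18. HMGB1 had 168, 89.1, 83.9, 96.7, 92.5, 94.9 and 50.6 FPKM, and the log2 ratio moved by 0.11. Linc-WDTC1-1 (NPM1P39), a copy of the nucleolar chaperone gene NPM1, had 164 FPKM on day 0 and 49.9 on day 18, and NPM1 had 352 and 128. Of 26 such records with values to compare, 11 were past 2-fold lower and 1 higher, where all records had 24.2% lower and 10.5% higher. Recentred, 6 were lower and 3 higher, where all records had 10.6% and 19.9%.

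Copies of glycolytic enzyme genes comprised 16 records of 7 parents, of which 9 were at or above 1 FPKM. Linc-CXorf36-5 (chrX:46298992-46300168, minus strand, GAPDHP65) had 419, 333, 319, 311, 265, 255 and 195 FPKM, a steady order from day 0 to day 18 that GAPDH shared, from 1829 to 925 FPKM. Linc-ST6GALNAC5 (TPI1P1) had 99.4 FPKM on day 0 and 49.1 on day 18, and its parent TPI1 had 150 and 70.4. Of 11 such records with values to compare, 6 were past 2-fold lower and 0 higher, with a median of -1.02, where all records had 24.2% lower, 10.5% higher and a median of -0.40. Recentred, 2 were lower and 0 higher with a median of -0.46, where all records had 10.6%, 19.9% and a median of 0.16.

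Copies of cytoskeletal, iron storage and protein folding genes gave further cases of parallel change. Linc-MYOC-1 (chr1:171639501-171640216, minus strand, PFN1P1) matches profilin 1, an actin-binding protein, at 87.4% identity. It had 426 FPKM on day 0, 183 on day 1 and 58.1 on day 18, and PFN1 had 1217, 550.5 and 154. Linc-SMOX-2 (chr20:4004377-4005262, plus strand, FTLP3), a copy of the ferritin light chain gene FTL, had 187, 271, 347, 306, 281, 102 and 101 FPKM. FTL had 689, 942, 1192, 1084, 1033, 345 and 324, so both were highest on day 2 and lower from day 11. Linc-AFF2-2, the FTH1 pseudogene FTH1P8, had 199 FPKM on day 5 and 105 on day 11, and FTH1 had 352 and 198. Linc-KIF5B-2 (PPIAP31), a copy of the prolyl isomerase gene PPIA, had 137 FPKM on day 0 and 68.6 on day 1, and PPIA had 213 and 101. Linc-MYOC-1, linc-KIF5B-2, linc-WDTC1-1, linc-ST6GALNAC5 and linc-PTBP2-1 were among the 3 highest records of their groups. Linc-AFF2-2 was among the 3 highest records assigned to no group. All of these were chosen after their values were seen.

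A parent's record was not always usable. The record that carries the symbols ACTB and ACTG1, actin genes that every cell uses, was listed at 0 on all 7 days, while linc-COPS3-AS with the pseudogene ACTG1P24 was at 25.5 to 47.3 FPKM. No ratio is given for it. Only 3 flagged records matched genes of the mitochondrial genome, and the highest, linc-PCBD2-AS with MTND4P12, was at 5.41 to 7.53 FPKM.

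The first step of the course had the most calls. A change was called when log2(FPKM + 0.1) differed by at least 1 between days, which is 2-fold, in records with a mean of at least 0.1 FPKM and a value on both days. From day 0 to day 1, 164 of 1428 flagged records (11.5%) were called, 105 higher and 59 lower, against 9.05% of all records. From day 1 to day 2 the count was 36 (2.52%) against 1.59%, from day 2 to day 4 it was 47 (3.29%) against 2.13%, and from day 4 to day 5, which includes the replating, it was 34 (2.38%) against 1.42%. From day 5 to day 11 it was 88 (6.16%), 25 higher and 63 lower, against 6.8%, and from day 11 to day 18 it was 64 (4.48%) against 4.99%. The share of flagged records was above the background at each step until day 5 and below it afterwards. Unflagged lincRNA records had 10.2%, 3.70%, 3.80%, 3.20%, 6.23% and 4.63% at the 6 steps, so the flagged share was the lower of both from day 1 onwards.

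Between day 0 and day 18, 142 of 1427 flagged records (9.95%) were past 2-fold higher and 267 (18.7%) lower. The background over all records was 10.5% higher and 24.2% lower. Unflagged lincRNA records had 10.2% higher and 16.2% lower, so the flagged records resembled them more than coding genes, of which 28.2% were lower. The median change was -0.22 for flagged and unflagged lincRNA records alike and -0.52 for coding records. The median over all records with a mean of at least 1 FPKM was -0.56, a shift of the whole table on this scale. Relative to it, 325 flagged records (22.8%) were higher and 105 (7.36%) lower, against a background of 19.9% and 10.6%. The direction of the majority is thus set by the scaling and is not a result about the flagged records.

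**Figure D5:**
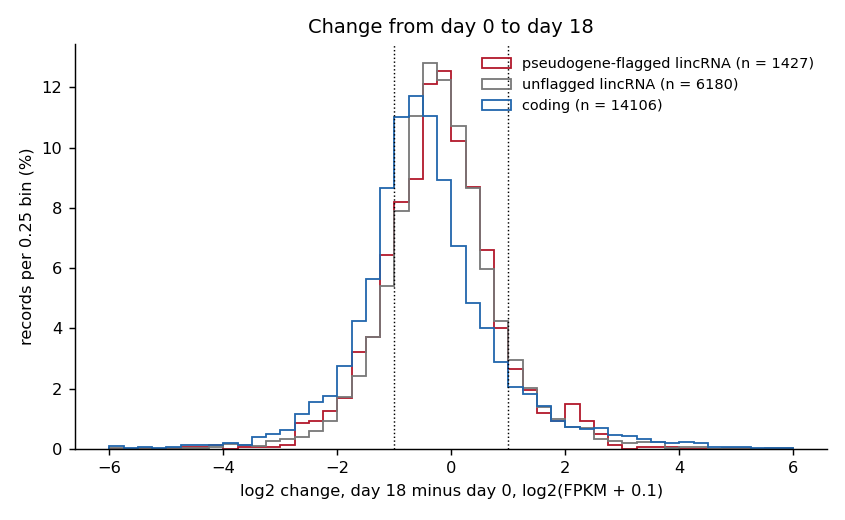
Percent of records per bin of 0.25 (vertical axis) by the log2 change from day 0 to day 18 (horizontal axis, log2(FPKM + 0.1)) for flagged lincRNA, unflagged lincRNA and coding records. Dotted lines mark 2-fold, and the medians lie at -0.22, -0.22 and -0.52.

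The day of the highest value was day 0 for 252 of the 784 flagged records (32.1%) that had a mean of at least 1 FPKM and all 7 values. Day 4 came next with 172 (21.9%), compared with 14.3% of unflagged lincRNA and 11.6% of coding records. Day 18 was the lowest day for 455 (58.0%). With each day scaled to the same median level, day 0 was highest for 200, day 18 for 185 and day 4 for 105 (13.4%, against 7.69% and 5.91%). The range over days was under 2-fold for 421 of the 784 (53.7%) and over 8-fold for 13 (1.66%), against 53.0% and 4.27% of coding records.

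Of the 6 largest increases, none was at a processed pseudogene by annotation. Linc-CDRT15L2-2 (chr17:20328042-20334520, plus strand, with the pseudogene USP32P3) had 3.01, 5.67, 6.82, 7.59, 8.92, 14.8 and 22.7 FPKM, higher on each later day, a log2 change of 2.87 or 3.43 recentred. Linc-SHMT1-5 (chr17:18400433-18427107, minus strand, with USP32P2) had 0.411 FPKM on day 0 and 2.63 on day 18, a change of 2.42. USP32, the ubiquitin protease gene both match, was at 10.1 FPKM on day 0 and 9.20 on day 18. These records did not keep a constant ratio to their parent.

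Among the other increases, linc-TPPP-2 (chr5:710411-784860, minus strand, at ZDHHC11B) had 2.38, 5.70, 7.96, 8.96, 9.59, 11.9 and 13.6 FPKM. Its neighbour TPPP, which encodes a tubulin-binding protein of the brain, was at 0.367 FPKM on day 0 and 7.26 on day 18. The record linc-TPPP-2 shares 5762 exon bases on the same strand with ZDHHC11B, which is annotated as protein-coding. It matches ZDHHC11 at 94.6% identity, and ZDHHC11 was at 4.04 FPKM on day 0 and 6.18 on day 18. Linc-LSAMP-4 (chr3:117391001-117716485, minus strand, LINC03051) stayed between 0.582 and 0.921 FPKM until day 5 and had 2.50 on day 11 and 5.42 on day 18. Its neighbour LSAMP, a cell adhesion gene of limbic neurons, was at 6.99 and 15.3 FPKM on days 0 and 18. Linc-ZFHX4-BP (chr8:77516917-77596239, minus strand, ZFHX4-AS1) had 1.28 FPKM on day 0 and 7.10 on day 18, and ZFHX4 had 6.78 and 17.1. Linc-SLC22A4-AS (record XLOC_013742, chr5:131616086-131731317, minus strand) had 0.386 and 2.82 FPKM. It overlaps a coding exon on the opposite strand, and without stranded counting reads from the 2 strands cannot be told apart.

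Of the 6 largest decreases, 4 were long noncoding RNAs without a coding match. Linc-AGA-4 (chr4:180299064-180386674, minus strand) had 3.66, 2.73, 2.04, 1.02, 0.696, 0.214 and 0.0753 FPKM, lower on each later day, a change of -4.42, or -3.87 recentred and -2.12 with a pseudocount of 1. Linc-TSPAN11-1 (chr12:30947455-30975024, plus strand) had 3.62 FPKM on day 0 and 0.0981 on day 18, while TSPAN11 had 11.9 and 21.9. Linc-SPACA7-1 (chr13:112930248-112976118, plus strand, LINC01043) stayed between 1.92 and 3.14 FPKM until day 5 and had 0.427 on day 11 and 0.0562 on day 18. Linc-DOCK10 (chr2:226545198-227050300, minus strand) had 3.08 and 0.181 FPKM.

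Higher levels were involved in the other two. Linc-BUB1-2 (chr2:111953766-112253442, minus strand, 25 exons) is MIR4435-2HG, a host gene of a microRNA, and had 136, 60.9, 75.8, 48.9, 45.8, 13.7 and 12.5 FPKM, a change of -3.44. BUB1, a mitotic checkpoint kinase gene, had 38.2 FPKM on day 0 and 4.98 on day 18. Linc-COL9A1 (chr6:71317474-71319079, minus strand), a retrocopy of the spermine synthase gene SMS at 97.6% identity, had 40.9, 15.6, 17.4, 12.4, 16.2, 7.73 and 5.01 FPKM. SMS had 168, 84.1, 82.7, 61.3, 66.7, 33.7 and 25.2 FPKM. Both were highest on day 0 and lowest on day 18, and linc-COL9A1 was at 22.1% of SMS.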

How the data were processed

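Polyadenylated RNA of 20 cultures was sequenced. As described in the study, the authors aligned paired-end reads with TopHat2 (hg19), assembled them with Cufflinks and quantified them with Cuffdiff2, at default options, which do not use strand. Versions are not given in the sources used here. The deposited FPKM values are 1 estimate per record and day, and 0 columns hold single samples, so the depth is unknown. The authors' comparison columns (log2 fold changes, test statistics, p-values, q-values) were not used. The deposited csf score, pseudogene flag and exon coordinates served as annotation, and the criteria of the flag are not given in the sources used here.

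Groups were the days in the sample titles. Members and lists were chosen with earlier results of these data known. The functional groups of parent genes were drawn up after the matches had been seen. Changes used a pseudocount of 0.1, a minimum mean of 0.1 FPKM and a 2-fold threshold. Named records were the 20 highest by mean FPKM, the 6 largest increases and decreases among those at or above 1 FPKM, and the 5 highest csf scores, with chromosome Y left out. Exons (280096 on GRCh37 chromosomes, with 9235 elsewhere not compared) were intersected with GENCODE release 44 by bedtools 2.31.1 and searched by BLAST+ 2.17.0 (megablast) against coding sequences of 19834 genes, masking coding bases matched by over 50 lincRNA records as repeats. Calculations in Python 3.11.15 with pandas 2.3.3 were tested on simulated data. Alternatives varied pseudocount, minimum level, scaling, threshold, HIDATA values and membership. A record at or above 100 FPKM is not reported here.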

Additional observations from a re-analysis of the deposited data

How the results depend on the processing

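No paired analysis was possible because the files hold 1 value per day, and for the same reason leaving out each culture and the replicate block were not run. Of the counts and medians, 32 alternative values lay within 1.5 times the reported count (medians: within a 95% interval) and 19 did not. From day 0 to day 18 the 142 higher and 267 lower records became 39 and 126 with a pseudocount of 1, 325 and 105 when recentred, and 46 and 52 at a log2 change of at least 2. A minimum mean of 1 FPKM left 46 higher. Day 11 in place of day 18, chosen after seeing the data, gave 159 lower. With a pseudocount of 1, the 6 steps gave 36, 5, 6, 4, 18 and 13 calls. This follows from its damping of low values. For these changes, shares over all records were computed only at the main settings and when recentred. The other alternative counts therefore do not compare flagged records with the background. Scaling by day changed the records highest on day 4 to 105 and on day 18 to 185. The median csf score was -635 for records at or above 1 FPKM and, chosen after seeing the data, -3490 with the lowest-scoring transcript. Requiring 95% identity, also chosen after seeing the data, left 646 records with a coding match. Of 35 named records with a change, 17 were past 2-fold, and 12 others turned sign when recentred. Recentring on a median of -0.56 cannot turn the sign of a change past 2-fold. It did bring linc-MED14-3 (-0.44), linc-CXorf36-5 (-0.55) and linc-CCDC146-1 (-0.66) under 2-fold. With a pseudocount of 1, changes moved by over 1.5 times for linc-SLC22A4-AS (1.46), linc-LSAMP-4 (1.74), linc-SHMT1-5 (1.36), linc-AGA-4 (-2.12), linc-TSPAN11-1 (-2.07), linc-SPACA7-1 (-1.75), linc-DOCK10 (-1.79) and linc-ANKRD20A1-14 (-1.63), all still past 2-fold. The unknown depth limits low values most.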
